A study of Saccharomyces cerevisiae with 18 samples.

Results

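The 37 genes described here encode the yeast proteasome and 4 proteins that work with it: 7 subunits of the alpha ring and 7 of the beta ring of the 20S core, 10 subunits of the base and 9 of the lid of the 19S regulatory particle, and RPN4, UBP6, ECM29 and UMP1. They were chosen by systematic name, from what is known of their products, but with earlier results of these data known. Each had a value on all 18 arrays. They are 37 of the 5739 genes measured on every array. The 18 NimbleGen arrays held 3 labelings of each of the Saccharomyces cerevisiae strains EPY330 and EPY338 with each of 3 methods, the direct random method (random primers that carry Cy3, extended during reverse transcription), the indirect method (aminoallyl nucleotides coupled to an Alexa Fluor dye afterwards) and the ds-cDNA method (double-stranded cDNA copied from labeled random primers). Each labeling started from 10 μg of total RNA, and 5 μg (direct random), 0.3 μg (indirect) or 4 μg (ds-cDNA) of labeled cDNA was hybridized. EPY330 and EPY338 are both engineered strains. Neither the labels nor the methods used here give their genotypes, so the alleles by which they differ are not stated. For each strain 3 colonies were grown first in SD-His-Met-Leu medium and then for 24 h at 30°C in YPG inducing medium, and equal amounts of RNA from the 3 cultures were pooled. The replicates of a group are therefore separate labelings of 1 RNA pool, p-values measure the spread of labeling and hybridization only, and the 3 methods are repeated readings of the same pools and not independent support for a difference between strains.

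The proteasome degrades proteins that carry ubiquitin. The 20S core is a barrel in which proteolysis takes place inside the beta rings, behind the gate formed by the alpha rings. The 19S base unfolds substrates with a ring of ATPases, and the lid holds the enzyme that removes ubiquitin. In yeast, Rpn4 is a short-lived transcription factor that activates most proteasome genes and is itself degraded by the proteasome, and the RPN4 gene is in turn a known target of the drug resistance factors Pdr1 and Pdr3, of Yap1 and of Hsf1.

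RPN4 mRNA was higher in EPY330 with all 3 methods, and it was the only one of the 37 genes past 95% confidence (Benjamini-Hochberg adjusted p under 0.05 over all genes, limma) with every method. The subunit genes differed far less: the median log2 difference EPY330 minus EPY338 of the 33 subunits was 0.08 with the direct random method, 0.10 by indirect labeling and 0.03 by ds-cDNA labeling, beside -0.01, -0.02 and 0.00 over all genes.

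With the direct random method the log2 intensities of RPN4 (YDL020C) were 12.02, 12.06 and 12.07 in EPY330 and 11.18, 11.06 and 11.21 in EPY338. By indirect labeling they were 12.16, 11.95 and 11.88 in EPY330 and 11.25, 11.08 and 11.07 in EPY338. By ds-cDNA labeling they were 11.92, 11.96 and 11.69 in EPY330 and 10.97, 11.05 and 11.25 in EPY338. Every EPY330 array was above every EPY338 array of its method, and RPN4 was the only one of the 37 genes of which this held with all 3 methods. The fold-change EPY330/EPY338 was 1.87 with the direct random method (95% interval 1.72 to 2.03, adjusted p = 3.42e-05, limma), 1.82 by indirect labeling (1.57 to 2.10, adjusted p = 0.000851) and 1.70 by ds-cDNA labeling (1.43 to 2.03, adjusted p = 0.0119). Ranked from the largest log2 difference down, RPN4 stood at place 51, 56 and 56 of 5739. The difference of the log2 differences was 0.04 between direct random and indirect (95% interval -0.23 to 0.31), 0.13 between direct random and ds-cDNA (-0.14 to 0.41) and 0.10 between indirect and ds-cDNA (-0.17 to 0.37), and none of the 3 passed the interaction test (adjusted p = 1.00, 0.80 and 0.844, limma). The ds-cDNA call ended when EPY338 replicate 2 was left out (adjusted p = 0.0523) and with the methods' t-test (adjusted p = 0.0751), with the log2 difference between 0.71 and 0.85 whichever array was left out.

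**Figure D1:**
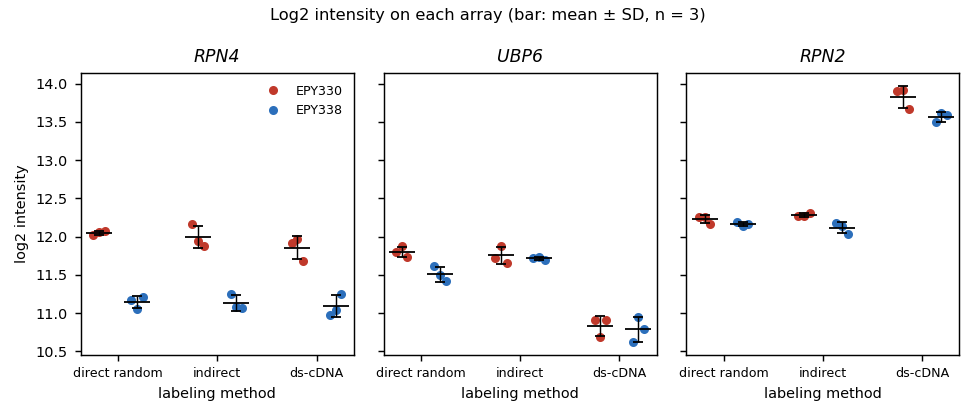
Log2 intensity (y axis) of RPN4, UBP6 and RPN2 on each of the 18 arrays, by labeling method and strain (x axis); points are arrays and bars are the mean ± SD of 3 labelings. The EPY330 and EPY338 points of RPN4 are apart with all 3 methods, those of UBP6 only with the direct random method, and those of RPN2 only with the other two.

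With the direct random method 8 of the 37 genes were higher in EPY330 and 0 lower, where 11.0% of all genes were called higher and 11.4% lower. They were RPN4, the deubiquitinase gene UBP6 and 6 of the 33 subunits, with fold-changes of the subunits between 1.11 and 1.15. UBP6 (YFR010W), whose product trims ubiquitin chains at the base, had log2 intensities of 11.80, 11.87 and 11.74 in EPY330 and 11.61, 11.49 and 11.42 in EPY338, without overlap, a fold-change of 1.23 (adjusted p = 0.0153, limma). By indirect labeling its values were 11.73, 11.88 and 11.66 in EPY330 and 11.72, 11.73 and 11.69 in EPY338, and by ds-cDNA labeling 10.91, 10.68 and 10.91 against 10.62, 10.94 and 10.79. The strains overlapped in both, with fold-changes of 1.03 and 1.03 (adjusted p = 0.798 and 0.849). The interaction tests did not show that the UBP6 difference depended on the method (adjusted p = 0.878 for direct random against indirect and 0.517 for direct random against ds-cDNA, limma).

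The 6 subunit genes called with the direct random method came from every part of the particle. In the core they were SCL1 (fold-change 1.15, adjusted p = 0.0412) and PRE10 (1.12, 0.0493) of the alpha ring and PRE4 (1.11, 0.0304) of the beta ring, a non-catalytic subunit. In the base they were the ATPase RPT5 (1.15, 0.0370) and RPN1 (1.11, 0.0355), a large scaffold subunit that binds ubiquitin shuttle proteins. In the lid it was RPN7 (1.12, 0.0429), one of the scaffold subunits. PRE4 had log2 intensities of 12.68, 12.69 and 12.71 in EPY330 and 12.56, 12.56 and 12.50 in EPY338 with this method, the smallest adjusted p among the subunits, and the strains did not overlap.

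These subunit calls lay close to the threshold. The number of the 37 genes called was 4 without EPY330 replicate 1, 2 without EPY330 replicate 2, 2 without EPY330 replicate 3, 4 without EPY338 replicate 1, 2 without EPY338 replicate 2 and 3 without EPY338 replicate 3, and each of the 6 subunits was lost in at least 5 of these 6 fits. UBP6 was lost only without EPY338 replicate 2 (adjusted p = 0.0522) among these fits, and also with the methods' t-test (adjusted p = 0.0758), while RPN4 was called in all of them. The shares of all genes called in the same fits are not given. The fall in the count is therefore not shown to be particular to these genes.

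By indirect labeling RPN4 was the only gene called of the 37, at a background of 4.48% of all genes higher and 4.60% lower. At an unadjusted p under 0.05, 5 of the 33 subunits were higher (10.9% of all genes) and 0 lower (14.5% of all genes) by limma, and the closest to the threshold after adjustment was the alpha ring gene PRE8, with 12.39, 12.42 and 12.42 in EPY330 and 12.25, 12.17 and 12.08 in EPY338 (fold-change 1.18, adjusted p = 0.0618). The methods' t-test called 1 subunit, RPN6, and limma with a trend in the prior variance called 1, PRE8.

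By ds-cDNA labeling RPN4 was again the only gene called, at a background of 3.76% higher and 2.56% lower. At an unadjusted p under 0.05 the subunit RPN2 was the 1 of 33 higher (12.4% of all genes) and 0 were lower (11.9% of all genes) by limma, and the methods' t-test called 0 of the 37. UMP1, the maturation factor of the 20S core, had log2 intensities of 10.11, 10.19 and 9.86 in EPY330 and 10.28, 10.23 and 10.37 in EPY338. These did not overlap, but the log2 difference of -0.24 was not past the threshold (adjusted p = 0.194), only under an unadjusted p of 0.05.

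**Figure D2:**
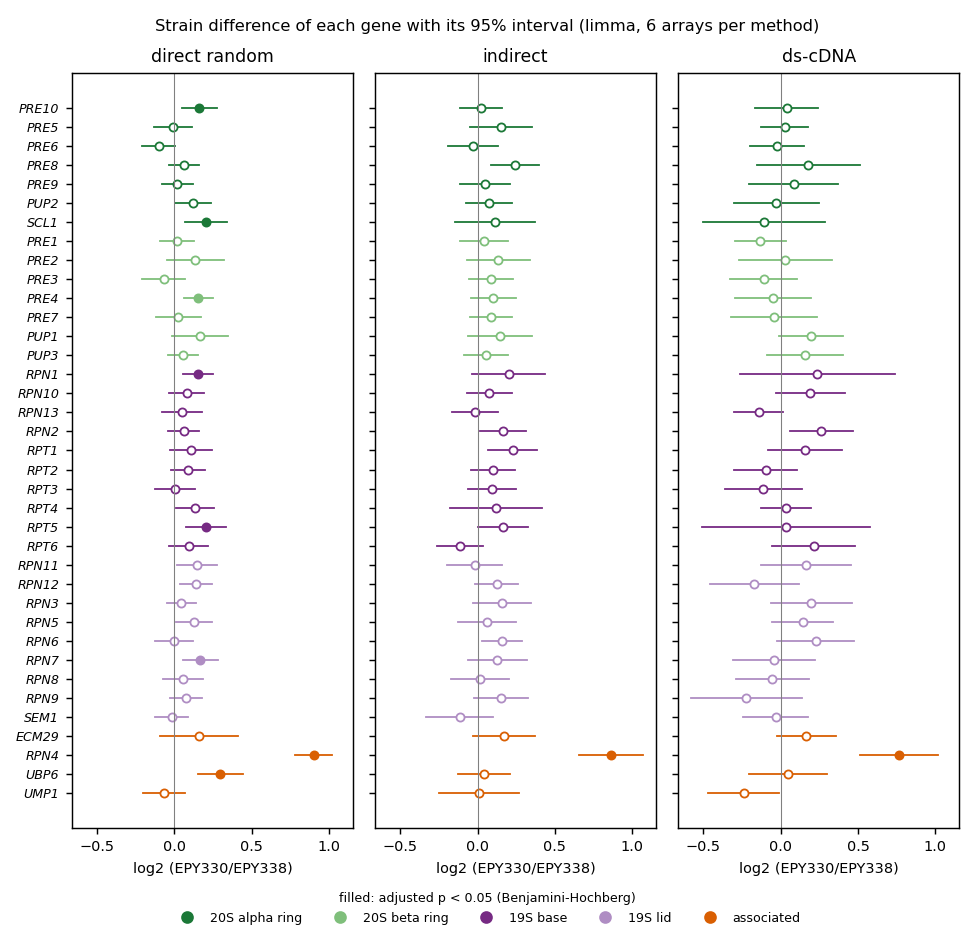
Log2 difference EPY330 minus EPY338 (x axis) of each of the 37 genes (y axis, by class) with each of the 3 labeling methods; lines are 95% intervals of limma and filled points are at 95% confidence. RPN4 lies at 0.90, 0.86 and 0.77, and the 33 subunits between -0.22 and 0.26.

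Counted by direction only, 28 of the 33 subunits had a log2 difference above 0 with the direct random method (46.9% of all genes), 28 by indirect labeling (42.6% of all genes) and 18 by ds-cDNA labeling (50.5% of all genes), and 14 with all 3 methods (25.7% of all genes). In the mean of the methods it was 27 (46.2% of all genes). The EPY330 arrays lay wholly above the EPY338 arrays for 13 subunits with the direct random method, where 19.3% of all genes did so, for 14 by indirect labeling (12.2% of all genes) and for 3 by ds-cDNA labeling (15.1% of all genes). They lay wholly below for 1 subunit in each case, PRE6 with the direct random method, RPT6 by indirect labeling and RPN13 by ds-cDNA labeling, and 41.3%, 30.2% and 29.2% of all genes did not overlap in one direction or the other. By ds-cDNA labeling the subunits were thus near or below the background, and with the other methods more of them lay above EPY338 than in the background.

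The mean of the 33 subunits was also taken on each array. With the direct random method it was 12.45, 12.44 and 12.44 in EPY330 and 12.37, 12.35 and 12.36 in EPY338. By indirect labeling it was 12.57, 12.62 and 12.56 in EPY330 and 12.51, 12.51 and 12.47 in EPY338. By ds-cDNA labeling it was 12.16, 12.17 and 12.00 in EPY330 and 12.01, 12.07 and 12.14 in EPY338. The strains were apart by 0.08 and 0.09 with the first 2 methods, without overlap, and by 0.04 by ds-cDNA labeling, where they overlapped and the pooled SD of the labelings was 0.0794 against 0.00919 with the direct random method. For single subunits the replicate SD had a median of 0.0564 (direct random), 0.0678 (indirect) and 0.143 (ds-cDNA), beside 0.0730, 0.102 and 0.112 over all genes. The ds-cDNA median difference of the subunits ranged from -0.02 to 0.07 as single arrays were left out and was below 0 without EPY330 replicate 2.

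The intervals are of single genes and hold only the spread of labeling and hybridization of the RNA pools, not that between cultures. The highest upper limit of a 95% interval of any subunit was a fold-change of 1.27 with the direct random method, 1.36 by indirect labeling and 1.67 by ds-cDNA labeling. The interval of 0 of the 33 subunits reached the RPN4 estimate of the same method. By ds-cDNA labeling those of RPN1 (up to 1.67) and RPT5 (up to 1.49) overlapped the RPN4 interval, which began at 1.43. The strain differences of the subunits correlated weakly between methods. Across the 33 genes, which share arrays and normalization, the Pearson correlation was 0.285 between direct random and indirect, 0.123 between direct random and ds-cDNA and 0.192 between indirect and ds-cDNA. Over all genes it was 0.857, 0.754 and 0.772. The subunit differences ran only from -0.22 to 0.26, and all genes include far larger ones. A narrow range lowers a correlation, so these values do not show that the order of the subunits differed.

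**Figure D3:**
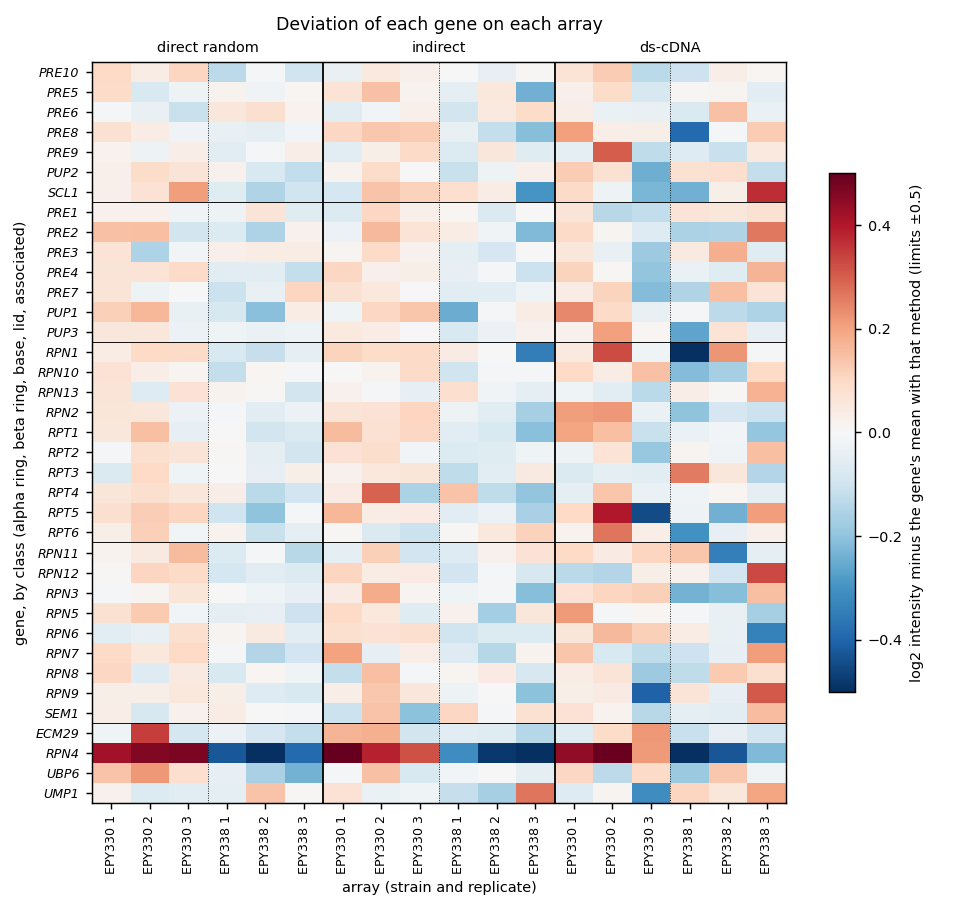
Heat map of the 37 genes (rows, by class) on the 18 arrays (columns, by method and strain), coloured by log2 intensity minus the mean of that gene with that method, with the colour scale limited to ±0.5 log2 units. The RPN4 row changes sign between EPY330 and EPY338 with each method, and most subunit rows are paler and, in the ds-cDNA columns, more mixed, with single dark cells such as RPN1 on EPY338 replicate 1.

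Averaged over the 3 methods in 1 fit of 18 arrays, which takes the spread as shared between methods, 9 of the 37 genes were higher in EPY330 and 0 lower, at a background of 16.1% of all genes higher and 19.8% lower. RPN4 had a mean fold-change of 1.79 (95% interval 1.66 to 1.94, adjusted p = 1.33e-09, limma). Of the 33 subunits 7 were called, with fold-changes between 1.08 and 1.13, and they did not include any of the 6 called with the direct random method, although both rest in part on the same arrays. The median log2 difference was 0.06 over the alpha ring, 0.07 over the beta ring, 0.11 over the base and 0.08 over the lid.

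In the core the 2 calls of this mean were PRE8 of the alpha ring (fold-change 1.12, adjusted p = 0.0289) and PUP1 (YOR157C), the beta subunit with the trypsin-like active site (1.13, 0.0174). PUP1 had direct random log2 intensities of 12.15, 12.20 and 12.00 in EPY330 and 11.95, 11.83 and 12.07 in EPY338, which overlapped, and fold-changes of 1.12 (direct random), 1.11 (indirect) and 1.15 (ds-cDNA). The other catalytic beta subunits were PRE2, of the chymotrypsin-like site, with a mean fold-change of 1.07 (adjusted p = 0.217), and PRE3, of the caspase-like site, with 0.980 (adjusted p = 0.629).

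In the base the 3 calls were the ATPase RPT1 (1.12, 0.00981), the ubiquitin receptor RPN10 (1.08, 0.0374) and the scaffold RPN2 (1.12, 0.00344). RPN2 (YIL075C) had 12.26, 12.26 and 12.17 in EPY330 and 12.19, 12.14 and 12.17 in EPY338 with the direct random method, which overlapped. It had 12.26, 12.27 and 12.31 against 12.17, 12.14 and 12.03 by indirect labeling and 13.91, 13.91 and 13.66 against 13.49, 13.61 and 13.59 by ds-cDNA labeling, without overlap in both. The largest mean difference of any subunit was that of RPN1, a fold-change of 1.15 that missed the threshold (adjusted p = 0.0797). Its ds-cDNA arrays were at 13.03, 13.31 and 12.97 in EPY330 and 12.42, 13.20 and 12.98 in EPY338, with EPY338 replicate 1 far below the rest. Without that array the mean log2 difference of RPN1 fell from 0.20 to 0.12 (adjusted p = 0.127), below that of other subunits, and without ds-cDNA EPY338 replicate 2 it was 0.25 (adjusted p = 0.0153), the 1 of 18 such fits that called it.

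In the lid the 2 calls were RPN6 (1.09, 0.0309) and RPN3 (1.10, 0.0442). RPN6 had fold-changes of 0.997 (direct random), 1.12 (indirect) and 1.17 (ds-cDNA), so the direct random method showed no higher level. The deubiquitinase RPN11 had a mean fold-change of 1.07 (adjusted p = 0.172). SEM1, the smallest lid subunit, had 12.59, 12.48 and 12.58 in EPY330 and 12.59, 12.55 and 12.55 in EPY338 with the direct random method, which overlapped. Its mean log2 difference was -0.05 (adjusted p = 0.411), next to -0.05 for PRE6, and ran from -0.09 without indirect EPY330 replicate 2 to -0.03 without indirect EPY330 replicate 3. Among the associated genes ECM29, an adaptor that ties core and regulatory particle, was called (1.12, 0.0344), UBP6 was just outside the threshold (1.09, 0.0533) and UMP1 had a mean log2 difference of -0.10 (adjusted p = 0.199), which was -0.05 without indirect EPY338 replicate 3.

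PUP1, RPT1 and RPN2 were called under each of the 6 alternatives and each of the 18 fits without 1 array. PRE8 was lost without ds-cDNA EPY330 replicate 1, indirect EPY338 replicate 3 or direct random EPY330 replicate 1, RPN6 in 3 of the 18 fits, RPN10 in 9, ECM29 in 10 and RPN3 in 14. Under the 6 alternatives RPN10 was called in 2, RPN3 in 4, RPN6 in 4, PRE8 in 5 and ECM29 in 5. RPN1, which missed the threshold in the main fit, was called in 3 of them.

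The intensity of a gene also differed between the labeling methods, and for several proteasome genes by much more than between the strains. The methods differed too in the amount of cDNA hybridized, and the scanner gain was set for each array. Effects of labeling, amount and scanning cannot be told apart here. Between the indirect and direct random methods 22 of the 37 genes differed (64.5% of all genes), 16 higher and 6 lower by indirect labeling (34.0% and 30.5% of all genes). Between the ds-cDNA and direct random methods 35 differed (87.1% of all genes), 14 higher and 21 lower with ds-cDNA (49.7% and 37.4% of all genes). Between the ds-cDNA and indirect methods 33 differed (89.0% of all genes), 11 higher and 22 lower with ds-cDNA (48.6% and 40.4% of all genes). RPN4 was not past the threshold in any of the 3, with log2 differences of -0.03, -0.13 and -0.09 (adjusted p = 0.677, 0.0761 and 0.178, limma). The ds-cDNA arrays had higher medians (10.09 to 10.12) than those of the other methods (9.99 to 10.02), and these values were not corrected for that offset. As the RPN4 values with ds-cDNA are of a similar size to the offset, they do not show that its level was the same with that method. The offset is opposite in sign to them, so a correction for it would take them further below 0.

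The log2 intensity of SEM1 was between 12.48 and 13.20 on the direct random and indirect arrays and between 9.58 and 9.88 on the ds-cDNA arrays. The log2 difference between ds-cDNA and direct random was -2.84 for SEM1 (adjusted p = 1.49e-17), -3.09 for UMP1 (5.43e-17) and -2.46 for the ubiquitin receptor RPN13 (1.95e-18). Between ds-cDNA and indirect it was -3.34 for SEM1 (1.84e-18), -2.70 for UMP1 (2.52e-16) and -2.61 for RPN13 (9.31e-19). In all, 9 of the 37 genes were more than 1 log2 unit lower with ds-cDNA than with direct random and RPN2 was more than 1 higher (1.50), where 30.7% of all genes differed by more than 1 in either direction. Each of these differences had the same direction in both strains, and what sets them was not tested. The share of all genes in each direction at that size is not given. The split by direction is therefore not shown to be particular to the 37 genes.

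By class, 6 of 7 beta ring genes were called lower with ds-cDNA than with direct random (37.4% of all genes) and 7 of 10 base genes higher (49.7% of all genes). The largest differences between indirect and direct random were smaller, 0.69 for the alpha ring gene PUP2 (adjusted p = 2.76e-08), 0.52 for RPN11 (2.50e-06) and 0.50 for SEM1 (1.13e-06), and none of the 37 exceeded 1 log2 unit, where 2.84% of all genes did. All 9 lid genes had a difference above 0 in that comparison (53.4% of all genes), and 6 of them were called higher (34.0% of all genes).

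**Figure D4:**
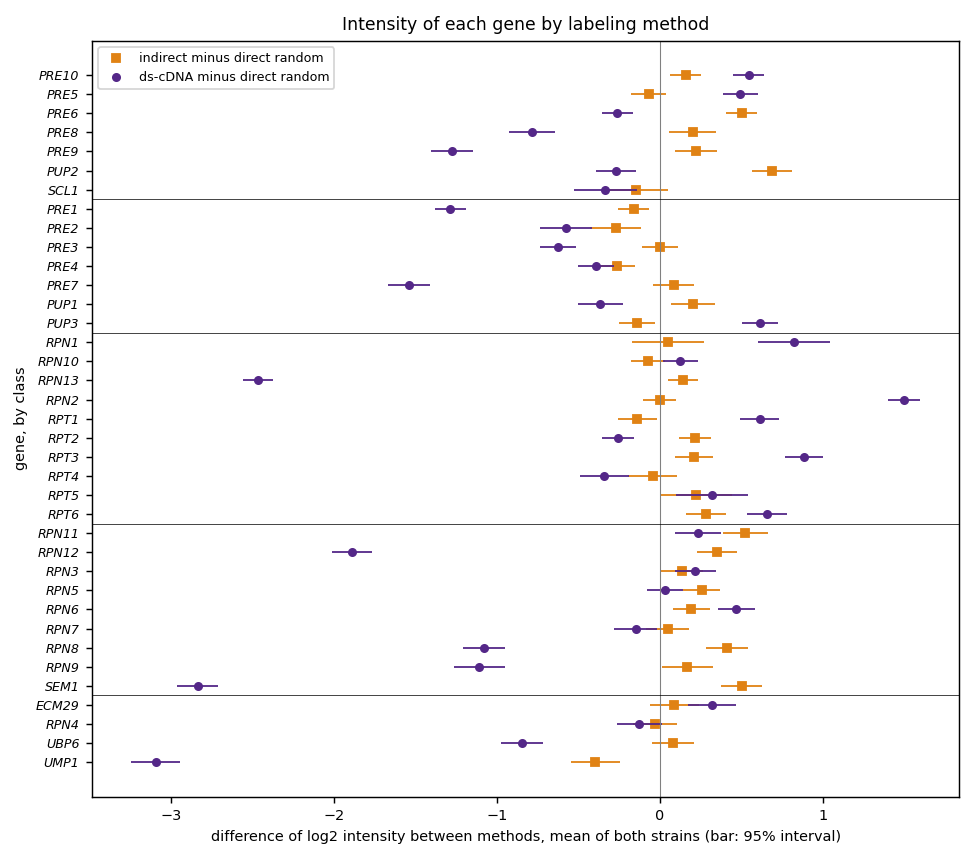
Log2 intensity difference (x axis) of each of the 37 genes (y axis, by class), indirect minus direct random and ds-cDNA minus direct random, over both strains, with 95% intervals. The largest falls with ds-cDNA are those of UMP1 (-3.09), SEM1 (-2.84) and RPN13 (-2.46). RPN4 lies near 0 in both, without correction for the higher medians of the ds-cDNA arrays.

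The strain difference itself was not shown to depend on the method for any proteasome gene. By limma on all 18 arrays, 0 of the 37 genes passed the interaction test for direct random against indirect (0% of all genes), direct random against ds-cDNA (0.575% of all genes) and indirect against ds-cDNA (0.697% of all genes), with 0, 4 and 3 of them at an unadjusted p under 0.05 (5.66%, 10.0% and 11.5% of all genes).

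The genes around the proteasome were read from lists set up beside the 37, chosen with earlier results of these data known. Of the 9 genes of assembly factors and of the activator Blm10, 0 were called in the mean of the methods by limma. Over all genes 16.1% were called higher and 19.8% lower. The median log2 difference of the 9 was -0.07, against -0.01 over all genes. The nearest was POC4, a chaperone of core assembly, with a fold-change of 0.929 (adjusted p = 0.0552), and it was called lower with a trend in the prior variance, with median centring, with quantile normalization within the method and with array weights. With the direct random method alone RPN14, a chaperone of base assembly, was lower (0.862, adjusted p = 0.0256), a call lost without EPY330 replicate 1, EPY338 replicate 1 or EPY338 replicate 2. Of the 20 genes of the ubiquitin system and of substrate delivery 6 were higher (16.1% of all genes) and 0 lower (19.8% of all genes) in the mean of the methods, with a median log2 difference of 0.09. They were DDI1 (1.20, adjusted p = 0.0018) and RAD23 (1.11, 0.0283), which carry ubiquitinated proteins to the proteasome, CUZ1 (1.17, 0.00505) and TMC1 (1.13, 0.0187), zinc finger proteins of this system, the Cdc48 cofactor NPL4 (1.12, 0.0361) and MUB1 (1.16, 0.00252), a partner of the ubiquitin ligase that marks Rpn4 for degradation. Without 1 array NPL4 was lost in 10 of 18 fits and RAD23 in 6, and the other four in 0. RAD23 had fold-changes of 0.999 (direct random), 1.10 (indirect) and 1.23 (ds-cDNA). Within single methods 3 of the 20 were called higher with the direct random method (CUZ1, MUB1 and DDI1), near the 11.0% of all genes. By limma 0 were called higher by ds-cDNA (3.76% of all genes) or indirect labeling (4.48% of all genes). At an unadjusted p under 0.05, 3 were higher by ds-cDNA (12.4% of all genes) and 5 by indirect labeling (10.9% of all genes). The direct random call of MUB1 was lost without EPY330 replicate 2, EPY330 replicate 3, EPY338 replicate 1 or EPY338 replicate 3, and that of DDI1 without any one EPY330 array or EPY338 replicate 3.

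The pleiotropic drug resistance genes, which include regulators of RPN4, differed much more than the proteasome subunits. All 11 were higher in EPY330 in the mean of the methods (16.1% of all genes), with a median log2 difference of 1.19. The list was chosen with earlier results of these data known, so its count and median are a description and not a test. The lipid transfer protein gene PDR16 had the largest fold-change of the list, 6.68, followed by the transporter gene PDR15 (5.15), by ICT1 (4.32) and by the transporter genes PDR5 (3.65) and SNQ2 (3.50), and the smallest were PDR1 (1.31) and PDR10 (1.28). Of the factors known to act at RPN4, PDR3 was higher with a mean fold-change of 2.06 (adjusted p = 4.73e-09) and was past the threshold with each method, PDR1 (1.31, 8.1e-05) and YAP1 (1.23, 4.61e-05) were higher in the mean, and HSF1 was lower (0.863, 0.0327), a call lost in 9 of 18 fits without 1 array. Whether the RPN4 difference follows from any of these was not tested.

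**Figure D5:**
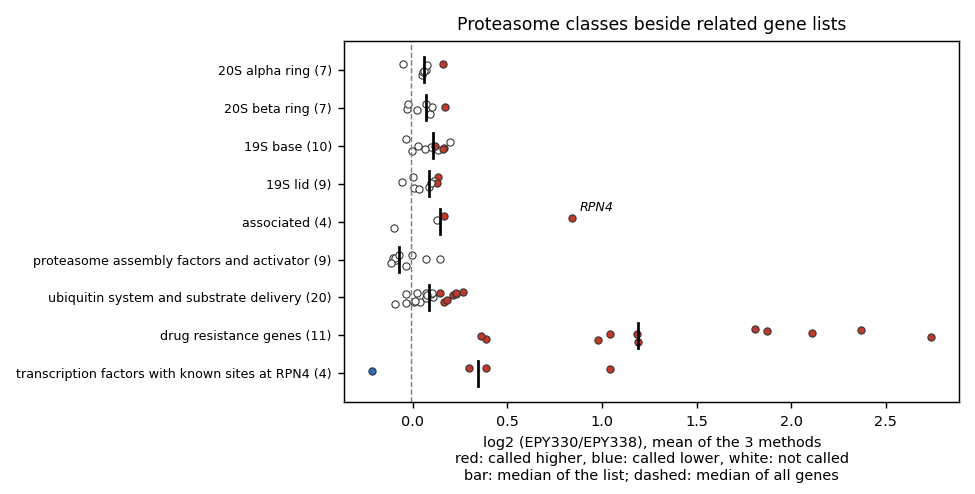
Log2 difference EPY330 minus EPY338, mean of the 3 methods (x axis), of each gene of the proteasome classes and of the related lists (y axis); points are genes (red called higher, blue called lower, white not called), bars are medians and the dashed line is the median of all genes. The drug resistance genes, with a median of 1.19, lie above the proteasome classes, whose medians are 0.06 for the alpha ring, 0.07 for the beta ring, 0.11 for the base and 0.08 for the lid.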

How the data were processed

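The deposited values are log2 intensities, 1 per gene and array, which the authors made from NimbleGen scans with RMA and quantile normalization in ArrayStar. The paper does not say which arrays were normalized together, or on which of 5 slides each lay. Of the table's entries, 122 had no value on any array and 5739 genes were kept, with no other filter. Array medians were 9.99 to 10.02 with the direct random and indirect methods and 10.09 to 10.12 with ds-cDNA. The number of arrays, 3 per group, limits the precision. Symbols came from the R64 annotation by systematic name (5733 matched), and no coordinates are given because the probes' build is not given in the sources used here. That annotation served otherwise only to check for overlapping genes, and none of the 37 overlaps another gene in it.

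Strains were compared within each method with limma 3.58.1 in R 4.3.3 (lmFit, eBayes) on 6 arrays, with Benjamini-Hochberg adjustment over all genes at 95% confidence. The mean of methods, the interactions and the intensity differences came from 1 fit of 18 arrays with 6 group means. The fits were tested on simulated data with planted changes of 0.5 and 1 log2 unit. Of the changes of 0.5, 90% were recovered with direct random, 68% with indirect, 64% with ds-cDNA and 100% in the mean of methods. False calls numbered 9, 7, 11 and 16. The subunit differences were smaller than the planted changes, so the simulation does not cover them. Named are RPN4, genes past the threshold for strain, the extremes of the mean of methods, the largest intensity differences and members of the stated lists; UBP6's other methods, PRE2, PRE3, RPN11, POC4 and RPN14 were chosen after their values were seen. The 37 genes and the lists were chosen with earlier results of these data known. Alternatives were the methods' t-test, 1 fit of all arrays, a trend in the prior variance, median centring, quantile normalization within the method, a replicate block, leaving out the dimmest 25% of genes, leaving out each array and, chosen after seeing the data, array weights.

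Same-numbered arrays of the strains deviated together with the indirect method (correlations 0.12, 0.15 and 0.25, each above the limit of 0.1). The differently numbered EPY330 replicate 2 and EPY338 replicate 1 were also above it (0.20), while the other differently numbered indirect pairs were below 0. With ds-cDNA, differently numbered arrays reached 0.18. Neither the labels nor these values establish pairs. A replicate block, run as an alternative, changed no indirect call. Figures were drawn with matplotlib 3.10.9. Promoter motifs were not analysed here.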

Additional observations from a re-analysis of the deposited data

Results flagged for a closer look

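Among the genes set beside the proteasome, the strain difference of 2 drug resistance transporter genes differed between methods by the interaction test (limma, adjusted over all genes). For RSB1 the log2 difference was larger by 0.93 with direct random than with ds-cDNA (adjusted p = 0.000647) and by 0.90 with indirect than with ds-cDNA (adjusted p = 0.000819), with fold-changes of 2.85, 2.79 and 1.49 for direct random, indirect and ds-cDNA. For PDR5 it was larger by 0.80 with indirect than with ds-cDNA (adjusted p = 0.0304), with fold-changes of 3.94, 4.65 and 2.67. None of the 37 proteasome genes was among the genes that differed, and groups of 3 arrays are too small for the test of single outlying arrays.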

How the results depend on the processing

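The ds-cDNA subunit median, which was not tested, changed sign without EPY330 replicate 2, and no called difference changed direction. The 8 genes called higher with the direct random method became 3 with the methods' t-test, 2 in 1 fit of all 18 arrays, 5 with median centring, 4 without the dimmest 25% of genes, and 2 to 4 without 1 array. The subunit median of 0.08 became 0.0628 with median centring and ran from 0.0769 to 0.107 without 1 array. With the indirect method the 1 gene called became 2 with the t-test and 2 with a trend. With the ds-cDNA method it became 0 with the t-test, 3 in the fit of 18 arrays and 0 to 1 without 1 array, and the subunit median of 0.03 ran from -0.02 to 0.07. RPN4 kept a log2 difference of 0.77 with that method under the t-test (adjusted p = 0.0751). Without 1 array RPN4 ran from 0.86 to 0.93 with direct random, 0.78 to 0.92 with indirect and 0.71 to 0.85 with ds-cDNA, and the 9 genes called in the mean of methods ran from 6 to 10. Shares of all genes called under the same settings are not given, so these changes of the counts are not shown to be particular to proteasome genes. With array weights, chosen after seeing the data, ECM29 was not called (adjusted p = 0.0619).

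Replicate numbers did not pair the arrays with the direct random (correlations 0.01, -0.10 and -0.04) and ds-cDNA (-0.08, 0.02 and -0.19) methods. A replicate block gave 2 genes called with direct random and 0 with ds-cDNA, where RPN4 stayed at 0.77 (adjusted p = 0.0708), and 1 with indirect. In the mean of methods it called 8, without PRE8 and RPN6 and with RPN1. The shares of all genes called with this block are not given either.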
